A study of Mus musculus with 6 samples.

Results

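The genes described here are 10 components of bone morphogenetic protein (BMP) signalling in basal cells of the mouse prostate: the ligands Bmp4 and Bmp7, the type I receptor Bmpr1a, the inhibitory SMADs Smad6 and Smad7, the pseudoreceptor Bambi, and the ID factors Id1, Id2, Id3 and Id4. They were taken by name, with earlier results of these data known. All 10 were found among the 25385 genes with a value. All 10 also averaged 1 FPKM or more (fragments per kilobase of transcript, relative to library depth) over the 6 libraries, which placed them among the 10312 genes tested. RNA sequencing compared basal cells from proximal ducts, nearest the urethra, with basal cells from distal ducts, near the gland tips, to ask where expression differs by duct region.

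Each group held 3 libraries of prostate cells from C57BL/6 mice, a common inbred laboratory strain, 8 to 12 weeks old, and the labels name no transgene and no treatment. The protocols cover dissociation of the tissue and cell sorting by flow cytometry, as well as stromal cell culture, and they give neither the gates for basal cells nor whether animals were pooled. Nothing in the labels ties the libraries to separate animals, and the p-values therefore reflect only the variation among these 6 libraries, which may be technical. RNA was taken from sorted cell populations, so fewer cells of a type and less RNA per cell cannot be told apart.

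BMP ligands bind a pair of type I and type II receptors, and the type I receptor phosphorylates SMAD1, SMAD5 and SMAD9, which join SMAD4 and enter the nucleus. The ID genes are direct targets in many cell types. Their products lack a DNA-binding domain and capture E proteins, which keeps these and other basic helix-loop-helix factors off DNA and generally holds back differentiation. Smad6, Smad7 and Bambi are induced by the same signal in many cell types and restrain it, and BMP signalling is known to shape branching and ductal growth in the developing prostate.

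Upstream sequence is shown for the ID genes, since Id3 is among the genes that passed the test below, and for Bmpr1a. RefSeq gene starts on GRCm38.p6 gave a window of 250 bases upstream for 6 of the 10 genes: Bmp4, Bmpr1a, Id2, Id3, Id4 and Smad6. The windows were searched on both strands for 4 motifs. GGCGCC, a motif that BMP-activated SMADs bind, was in 9.59% of all 32851 RefSeq windows of that length. GTCTAGAC, the palindromic SMAD-binding element, was in 0.167% of them. CAGAC, the shorter SMAD box, which the palindrome does not contain on either strand, was in 42.2% of them. CANNTG, the E-box that E proteins bind, was in 66.2% of them. Counted from the gene start, the window of Id3 held the short SMAD box at -167 and, on the other strand, at -68. Id2, Id4 and Bmpr1a each held the GC-rich motif, at -231, -148 and -198. Each match is shown with its flanks, 30 bases in all, read along the gene's own strand, with the matched letters in capitals.
Id3 at -167, chr4:136143643-136143672, plus strand: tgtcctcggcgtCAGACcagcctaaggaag
Id3 at -68, chr4:136143742-136143771, plus strand: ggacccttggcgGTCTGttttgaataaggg
Id2 at -231, chr12:25096306-25096335, minus strand: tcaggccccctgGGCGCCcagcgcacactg
Id4 at -148, chr13:48260956-48260985, plus strand: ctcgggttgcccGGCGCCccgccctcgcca
Bmpr1a at -198, chr14:34502727-34502756, minus strand: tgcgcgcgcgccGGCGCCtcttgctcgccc
The palindromic element was in none of the 6 windows, the E-box was in those of Bmp4 with 3 matches and Id2 with 1, and Smad6's window held none of the 4 motifs. In GENCODE M21 the Id3 stretches lie inside the first exon of Id3 as annotated there, the Id2 and Bmpr1a stretches lie within the span of their gene, and the Id4 stretch lies upstream of its gene. These matches are descriptions of letters and not of binding.

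The deposited intervals implied 21600000 to 27700000 fragments per library, and 9967 to 10360 genes reached 1 FPKM in each. Across genes, the Pearson correlation of log2(FPKM + 1) was 0.968 to 0.987 between libraries of a group and at most 0.970 between groups. The basal keratins Krt5, Krt14, Krt15 and Krt17 were abundant in every library, at 340 FPKM or more, and so were the luminal keratins Krt8 and Krt18. The luminal secretory gene Pbsn was at 263 to 412 FPKM. Of other cell types, the fibroblast markers stood at unlike levels, with Dcn at 641 to 789 FPKM and Col1a1 at 5.97 to 13.1 FPKM. Pdgfra and Lum of the same list were at 1.77 FPKM or less. The endothelial markers Cdh5, Kdr and Emcn were detectable in all libraries, at 0.143 to 6.32 FPKM. The summed FPKM of the 9 leukocyte markers was 18.1 to 33.3 in proximal and 24.1 to 29.6 in distal libraries, most of it from Cd74 and Cd68, while Ptprc, the pan-leukocyte marker, was at 0.0436 FPKM or less. Within each group, Id1 and Id3 were highest in replicate 1, and results are also given without both libraries numbered 1. In that fit 1335 of the 10312 tested genes were lower in proximal cells (adjusted p under 0.05 by limma), against 251 over all 6 libraries. Without proximal replicate 1 alone, 550 were lower. These counts are the background for each gene that passes only without such libraries, which is a description and no separate result.

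Of the 10 genes, 2 passed the test (adjusted p under 0.05 by limma over all tested genes), and both, Id3 and Bambi, were lower in proximal cells. By the same rule 6.95% of all tested genes passed, 2.43% as lower and 4.52% as higher in proximal cells. The other 8 did not pass. The estimated log2 fold change, proximal over distal, was below 0 in all 10, against 51.5% of all tested genes. Its median was -0.39, against -0.010 over all tested genes and 0.10 over the 34 other tested genes of the BMP pathway. The 10 genes were chosen with earlier results of these data known. Their shared direction is therefore a description and not a test. In 4 genes (Bmp7, Id2, Id3 and Bambi) every proximal value lay below every distal value, a separation found in that direction in 13.0% of all tested genes, in the opposite direction in 15.8% and in either in 28.8%.

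**Figure D1:**
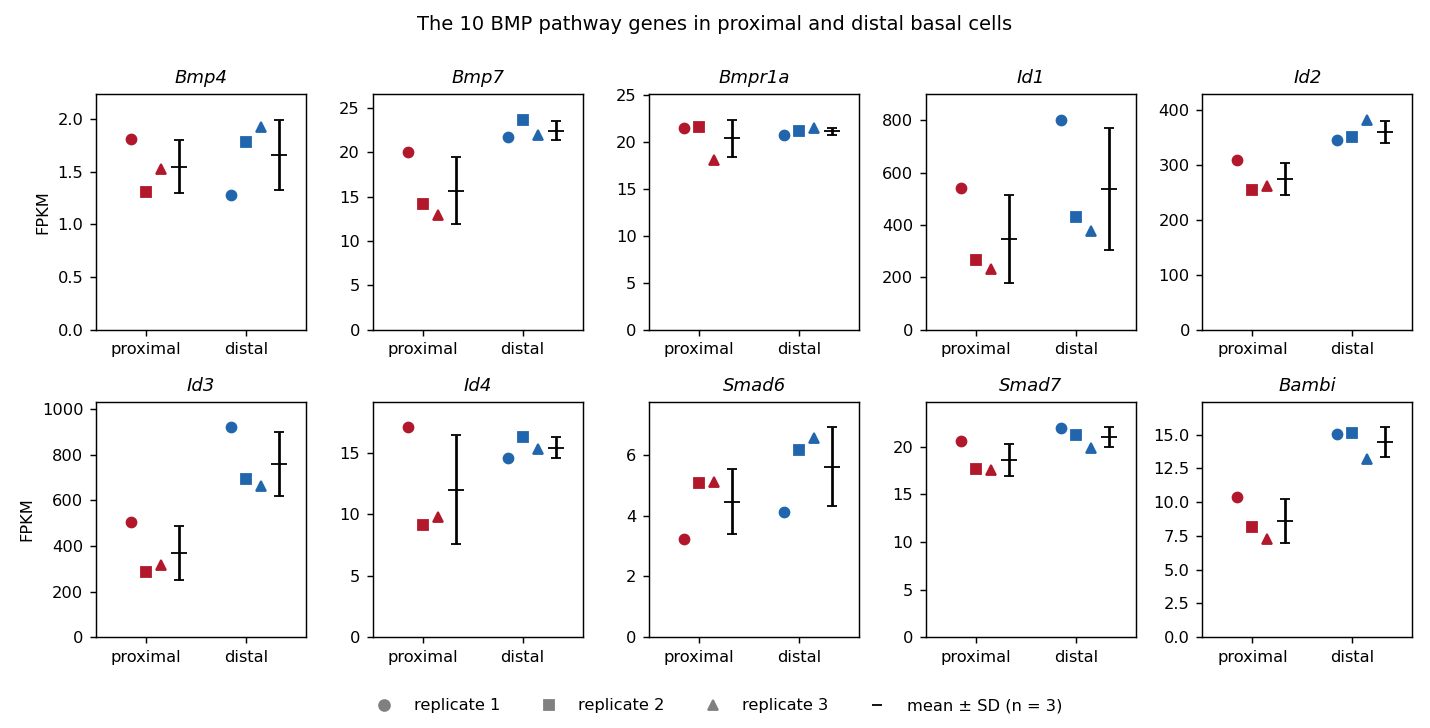
FPKM of each of the 10 genes in the 3 proximal (red, left) and 3 distal (blue, right) libraries, with marker shapes for the replicate number and bars for the mean ± SD (n = 3). Proximal and distal points do not overlap for Bmp7, Id2, Id3 and Bambi, and replicate 1 is the highest point of its group for Id1 and Id3.

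The 2 ligands stood at unlike levels. Bmp7, made by many epithelia and important for ductal morphogenesis, lies on chromosome 2 (172868012 to 172940321, mm10, minus strand). It had 20.0, 14.2 and 12.9 FPKM in proximal replicates 1, 2 and 3, against 21.7, 23.7 and 22.0 FPKM in distal replicates 1, 2 and 3. All proximal values lay below all distal values, with proximal replicate 1 close to the distal range. The means were 15.7 ± 3.78 FPKM in the proximal and 22.5 ± 1.08 FPKM in the distal group (SD, n = 3 each). Bmp7 did not pass, with a log2 fold change (proximal over distal, here and throughout) of -0.51 ± 0.16 (SE, adjusted p = 0.0967 by limma). Bmp7 passed when proximal replicate 1 was left out (log2 fold change -0.69, adjusted p = 0.0130), and also without both libraries numbered 1 (-0.71, adjusted p = 0.00882). It did not pass when any other library was left out (highest adjusted p = 0.287).

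Bmp4, a ligand that stromal cells make in the developing prostate, lies on chromosome 14 (46383520 to 46390669, minus strand). It was near the lower limit of testing, at 1.81, 1.31 and 1.53 FPKM in the proximal libraries and 1.28, 1.78 and 1.92 FPKM in the distal libraries. The groups overlapped, with the lowest value of all in distal replicate 1. Its log2 fold change, -0.059 ± 0.16 (SE, adjusted p = 0.863 by limma), had a 95% interval of -0.43 to 0.31. Its main transcript rested on 20 to 88 fragments per library, the fewest among the 10 genes. Of all tested genes, 90.9% were at least as highly expressed as Bmp4, against 30.0% for Bmp7.

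Among all 13 listed BMP ligands, Bmp7 was the most abundant in each library per transcript length. It made up 45.3%, 40.4% and 38.4% of the ligand FPKM in the proximal libraries and 48.6%, 49.7% and 47.5% in the distal libraries. Bmp4 made up 2.87% to 4.54% of it over all 6 libraries. Summed ligand FPKM was 44.1, 35.1 and 33.6 in proximal and 44.7, 47.7 and 46.3 in distal libraries, so the groups did not overlap although proximal replicate 1 came within 1 FPKM of distal replicate 1.

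The receptor Bmpr1a, the main type I BMP receptor of epithelia, lies on chromosome 14 (34410734 to 34503341, minus strand). It stood at 21.5, 21.6 and 18.1 FPKM in the proximal libraries and at 20.8, 21.1 and 21.5 FPKM in the distal libraries. The groups overlapped, and proximal replicate 3 was the only library below 20 FPKM. Bmpr1a had a log2 fold change of -0.053 ± 0.11 (SE, adjusted p = 0.811 by limma), with a 95% interval of -0.30 to 0.19, the narrowest of the 10 genes. In proximal replicate 2, a shorter transcript of 1999 bases was given 5.64 FPKM of the gene's total. The same transcript was listed at 0 in the other 5 libraries. The split of fragments between overlapping transcripts is an estimate, so the gene's total was used.

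Neither inhibitory SMAD passed the test. Smad7, which binds activated type I receptors and recruits ubiquitin ligases, lies on chromosome 18 (75367529 to 75395935, plus strand). It had 20.6, 17.7 and 17.6 FPKM in the proximal libraries and 21.9, 21.3 and 19.9 FPKM in the distal libraries. Proximal replicate 1 lay above distal replicate 3, so the groups overlapped. Smad7 had a log2 fold change of -0.17 ± 0.11 (SE, adjusted p = 0.376 by limma), with a 95% interval of -0.42 to 0.078.

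Smad6, which preferentially restrains BMP over other TGF-beta family signals, lies on chromosome 9 (63953076 to 64022059, minus strand). It had 3.22, 5.07 and 5.10 FPKM in the proximal libraries and 4.13, 6.17 and 6.54 FPKM in the distal libraries. Replicate 1 was the lowest library of both groups, the reverse of Id1 and Id3, and the groups overlapped. For Smad6 the log2 fold change was -0.28 ± 0.21 (SE, adjusted p = 0.459 by limma), with a 95% interval of -0.76 to 0.20. Leaving out proximal replicate 1 gave -0.10, leaving out distal replicate 3 gave -0.17 and leaving out distal replicate 1 gave -0.45. Smad6 did not pass in any of 18 alternatives.

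Bambi, a membrane protein that resembles a type I receptor without its kinase domain, was lower in proximal cells. It lies on chromosome 18 (3507923 to 3516404, plus strand). It had 10.4, 8.18 and 7.25 FPKM in the proximal libraries, against 15.1, 15.1 and 13.2 FPKM in the distal libraries. All proximal values lay below all distal values. The means were 8.61 ± 1.62 FPKM in the proximal and 14.5 ± 1.10 FPKM in the distal group (SD, n = 3 each), a proximal-to-distal ratio of 0.595. On the log2(FPKM + 1) scale, which understates changes of low genes, its log2 fold change was -0.70 ± 0.14 (SE, adjusted p = 0.0284 by limma). The gene had 1 listed transcript, overlapped by no other, with 912 to 2164 fragments implied per library. Bambi no longer passed when proximal replicate 2 (adjusted p = 0.124), proximal replicate 3 (0.0924), distal replicate 1 (0.0502), distal replicate 2 (0.131) or distal replicate 3 (0.0748) was left out, and it passed without proximal replicate 1 (0.0109). Its log2 fold change in these fits stayed between -0.83 and -0.59, and without both libraries numbered 1 it was -0.80 (adjusted p = 0.0105).

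Id3 had the largest difference of the 10 genes. It lies on chromosome 4 (136143497 to 136145755, plus strand). It had 505, 288 and 316 FPKM in the proximal libraries, against 921, 691 and 662 FPKM in the distal libraries. The highest proximal library lay below the lowest distal library, and the deposited intervals of these libraries, 494 to 515 FPKM in proximal replicate 1 and 650 to 674 FPKM in distal replicate 3, did not meet. The means were 369 ± 118 FPKM in the proximal and 758 ± 142 FPKM in the distal group (SD, n = 3 each), a ratio of 0.487. For Id3 the log2 fold change was -1.06 ± 0.23 (SE, adjusted p = 0.0330 by limma). Between 5014 and 15522 fragments were implied per library, so counting error was small beside the spread between libraries.

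As with Bambi, Id3 no longer passed when proximal replicate 2 (adjusted p = 0.135), proximal replicate 3 (0.119), distal replicate 1 (0.0600), distal replicate 2 (0.106) or distal replicate 3 (0.0811) was left out. It passed without proximal replicate 1 (0.00780), and the log2 fold change of Id3 in these 6 fits ranged from -1.31 to -0.91. Without both libraries numbered 1, it was -1.16 (adjusted p = 0.00235). With no filter on low values, neither Id3 (adjusted p = 0.0849) nor Bambi (0.0593) passed.

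Id1, often the most responsive BMP target, lies on chromosome 2 (152736251 to 152737410, plus strand) and varied most within groups. It had 540, 266 and 233 FPKM in the proximal libraries and 804, 430 and 377 FPKM in the distal libraries. Replicate 1 was the highest library of both groups, and its proximal value exceeded distal replicates 2 and 3, so the groups overlapped. The means were 346 ± 169 FPKM in the proximal and 537 ± 233 FPKM in the distal group (SD, n = 3 each), with coefficients of variation of 48.7% and 43.3%. Id1 had a log2 fold change of -0.65 ± 0.37 (SE, adjusted p = 0.327 by limma), with a 95% interval of -1.51 to 0.21. With 1 library left out, Id1 passed in none of the 6 fits (adjusted p = 0.0836 to 0.631), and its log2 fold change lay between -1.02, without proximal replicate 1, and -0.32, without distal replicate 1. Without both libraries numbered 1, Id1 had a log2 fold change of -0.69 and passed (adjusted p = 0.0135). In that fit 1335 of the 10312 tested genes passed as lower, against 251 over all 6 libraries.

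Id2, an ID factor with many inputs besides BMP, lies on chromosome 12 (25093799 to 25097140, minus strand). It had 308, 254 and 262 FPKM in the proximal libraries and 345, 350 and 382 FPKM in the distal libraries. The groups did not overlap, and proximal replicate 1 lay nearest to the distal range. The means were 275 ± 29.1 FPKM in the proximal and 359 ± 20.1 FPKM in the distal group (SD, n = 3 each). Its log2 fold change, -0.39 ± 0.12 (SE, adjusted p = 0.0902 by limma), did not pass over all libraries. Id2 passed without proximal replicate 1 (log2 fold change -0.47, adjusted p = 0.0415) and without both libraries numbered 1 (-0.50, adjusted p = 0.0161). It did not pass when any other library was left out (highest adjusted p = 0.285).

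Id4, the least abundant ID factor here, lies on chromosome 13 (48261228 to 48266026, plus strand). It had 17.1, 9.13 and 9.77 FPKM in the proximal libraries and 14.6, 16.3 and 15.3 FPKM in the distal libraries. Proximal replicate 1 was the highest of all 6 libraries, while the other 2 proximal libraries were the lowest, so the groups overlapped. Id4 had a log2 fold change of -0.38 ± 0.21 (SE, adjusted p = 0.314 by limma). Without proximal replicate 1 it was -0.65 and passed (adjusted p = 0.0177), as it did without both libraries numbered 1 (-0.68, adjusted p = 0.00963). Id4 did not pass in the other 5 fits with 1 library left out, with -0.23 without proximal replicate 2 (adjusted p = 0.657) and -0.27 without proximal replicate 3 (0.592). The Id4 transcript was assigned by a match of its spliced length to the annotated exons, a matching step chosen after seeing the data.

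Id3, Id1 and Id2 were among the most abundant genes in FPKM, and Id4 was not. Of all tested genes, 0.805% were at or above the mean level of Id3, 1.19% at or above that of Id1, 1.77% at or above that of Id2 and 38.2% at or above that of Id4. The summed FPKM of the 4 genes was 1370, 817 and 820 in the proximal libraries and 2084, 1488 and 1436 in the distal libraries. The groups did not overlap, and replicate 1 was the highest library of each.

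The share of each ID factor in this sum was also compared. Id3 made up 36.8%, 35.2% and 38.5% of the ID FPKM in the proximal libraries, against 44.2%, 46.5% and 46.1% in the distal libraries. These shares did not overlap between the groups, and they varied less within a group than the FPKM did. In the distal libraries Id3 was the most abundant ID factor throughout, whereas in proximal replicate 1 Id1 exceeded it. The Id1 share was 39.4%, 32.5% and 28.4% in proximal and 38.6%, 28.9% and 26.2% in distal libraries, and the groups overlapped. Id2 held 22.5%, 31.1% and 31.9% in proximal and 16.6%, 23.5% and 26.6% in distal libraries, also with overlap. Id4 held 1.25% or less in every library. The Id4 shares did not overlap between the groups either, with every proximal share above every distal share, the opposite order to Id3. No test was run on the shares.

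**Figure D2:**
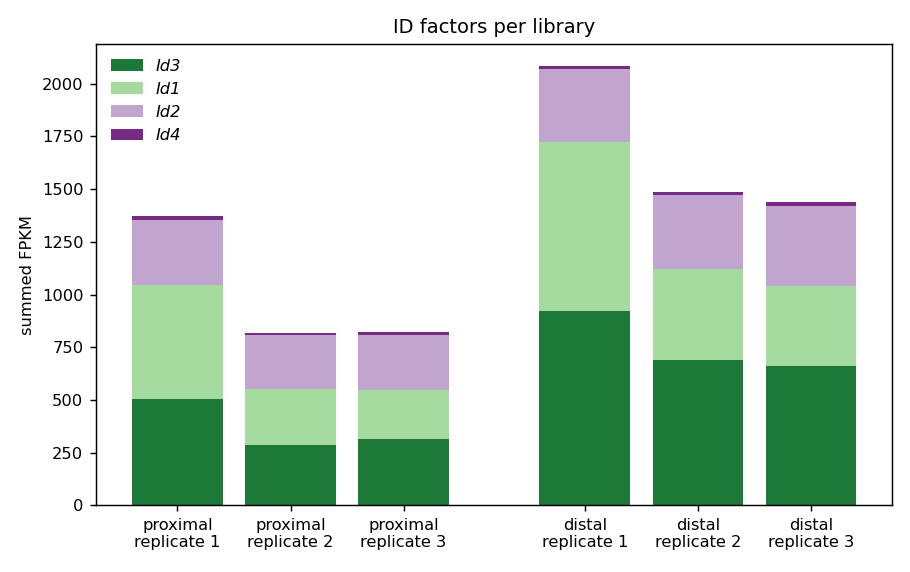
Stacked FPKM of Id3, Id1, Id2 and Id4 (vertical axis) in each proximal (left) and distal (right) library. The stacks reach 817 to 1370 FPKM in the proximal and 1436 to 2084 FPKM in the distal libraries, and Id3 is the largest block in all 3 distal libraries.

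The E proteins that ID factors capture did not show a difference that passed. Of Tcf3, Tcf4 and Tcf12, 0 of 3 passed in either direction by limma, and 0 of 3 had an unadjusted p under 0.05. Of all tested genes, 24.1% had an unadjusted p under 0.05, 12.1% with higher and 12.0% with lower values in proximal cells, and this share is the background for all such counts. Tcf12, the most abundant, had 11.6, 13.3 and 14.3 FPKM in the proximal libraries and 10.4, 12.8 and 12.6 FPKM in the distal libraries. Its log2 fold change was 0.12 (adjusted p = 0.610), and the groups overlapped. Tcf3 and Tcf4 had log2 fold changes of -0.17 and -0.16 (adjusted p = 0.505 and 0.521).

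Across the 6 libraries the 10 genes mostly varied together. Of 45 pairs, 40 had a positive Pearson correlation of log2(FPKM + 1), with a median r of 0.60. Id3 and Bambi, the genes that passed, had r = 0.96. Smad6 took part in 4 of the 5 negative pairs, the lowest being r = -0.46 with Id1, and the remaining pair was Bmp4 with Id1 at -0.020. The 6 libraries hold both duct regions and both libraries numbered 1, and these correlations are descriptions.

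By the same measure, the patterns most like those of Id3, Id1 and Bambi were sought among protein-coding genes averaging 10 FPKM or more. For Id3 they were Wdr45b (r = 0.998), Cox8a (0.997) and Cox14 (0.996). For Id1 they were Ift20 (0.999), Etfb (0.996) and Pfdn1 (0.996). For Bambi they were Ermard (0.998), Peli1 (0.994) and Dhrs1 (0.993). Of these 9 genes, Ermard and Peli1 passed the test, both lower in proximal cells, with log2 fold changes of -0.83 and -0.71 (limma, adjusted p = 0.0175 and 0.0292). Of all tested genes, 2.43% passed as lower. The 9 genes were picked for their likeness over the same 6 libraries, so a shared difference between the groups is no separate result.

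Beyond the 10 genes, 57 other genes of the pathway were listed, of which 34 were tested. In proximal cells 3 were higher (Bmp3, Sostdc1 and Eng), 1 was lower (Bmp5), and 30 did not pass. The shares over all tested genes were 4.52% higher and 2.43% lower. The median log2 fold change of the 34 was 0.10, on the other side of 0 from that of the 10 genes.

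Ligands outside the 10 genes moved in opposite directions. Bmp3, a ligand known to oppose other BMPs, had 6.12, 7.10 and 5.99 FPKM in the proximal libraries, against 2.02, 2.61 and 2.04 FPKM in the distal libraries. No value overlapped, and Bmp3 was higher in proximal cells by 1.20 ± 0.14 on the log2 scale (SE, adjusted p = 0.00277 by limma). Bmp5, a ligand close to Bmp7 in sequence, had 0.299, 0.477 and 0.391 FPKM in the proximal libraries, against 2.01, 2.17 and 2.76 FPKM in the distal libraries. Every proximal value was below 0.5 FPKM and every distal value above 2 FPKM, and Bmp5 was lower in proximal cells with a log2 fold change of -1.25 ± 0.15 (SE, adjusted p = 0.00351 by limma). With a pseudocount of 0.1 or 5 in place of 1, the log2 fold change of Bmp5 was -2.31 or -0.44, and that of Bmp3 was 1.49 or 0.66. Bmp2, the ligand next to Bmp7 in level, had 14.4, 10.2 and 10.5 FPKM in the proximal libraries and 15.6, 16.8 and 16.4 FPKM in the distal libraries. The groups did not overlap, and the log2 fold change of -0.46 ± 0.14 (SE, adjusted p = 0.0978 by limma) did not pass.

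Among secreted antagonists, Sostdc1, which binds BMPs and also Wnt co-receptors, was higher in proximal cells. It had 2.99, 4.77 and 3.03 FPKM in the proximal libraries, against 0.252, 0.0657 and 0.279 FPKM in the distal libraries. The groups were far apart, with a log2 fold change of 1.92 ± 0.19 (SE, adjusted p = 0.00135 by limma). The size of this value rests on the pseudocount, being 3.69 with 0.1 and 0.72 with 5 added to FPKM, and the ratio of mean FPKM was 18.1. Of the other 6 tested antagonists and proteases, 0 passed by limma, and 1 (Fstl3, named for this value) had an unadjusted p under 0.05, as higher in proximal cells. The most abundant were Nbl1, Fst and Twsg1, with proximal and distal means of 101 and 93.2 FPKM for Nbl1, 73.0 and 61.8 FPKM for Fst, and 41.8 and 49.1 FPKM for Twsg1. Their log2 fold changes were 0.12, 0.25 and -0.23 (limma, adjusted p = 0.628, 0.340 and 0.224).

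**Figure D3:**
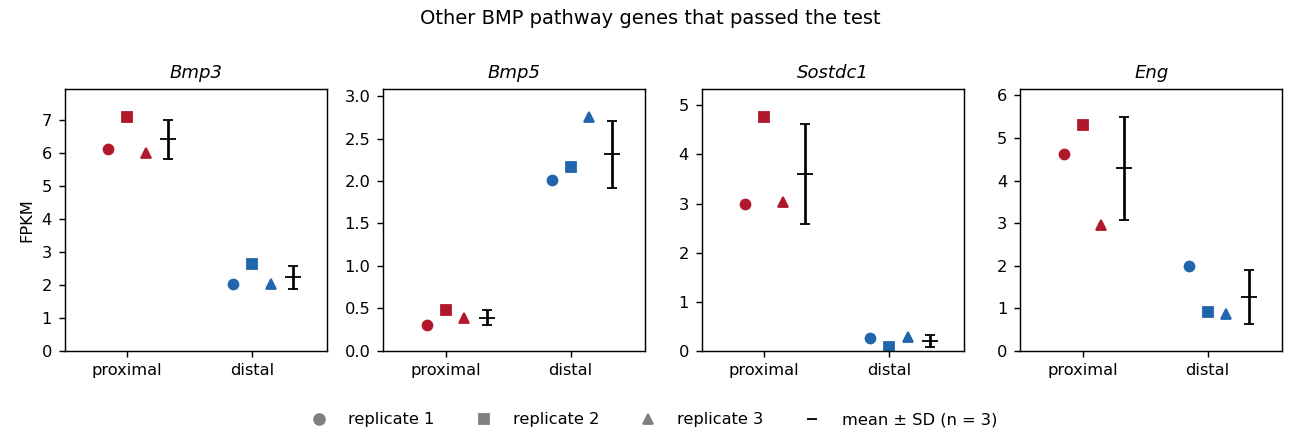
FPKM of the 4 other pathway genes that passed the test, in the proximal (red, left) and distal (blue, right) libraries, with bars for the mean ± SD (n = 3). Bmp3, Sostdc1 and Eng are higher and Bmp5 is lower in all 3 proximal libraries than in any distal library.

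Of the 7 tested receptors and co-receptors besides Bmpr1a, 1 passed. Eng, an endothelial co-receptor, had 4.61, 5.31 and 2.95 FPKM in the proximal libraries, against 2.00, 0.911 and 0.869 FPKM in the distal libraries. The groups did not overlap, and the log2 fold change was 1.24 ± 0.24 (SE, adjusted p = 0.0249 by limma). Eng no longer passed without proximal replicate 2 (adjusted p = 0.110), distal replicate 2 (0.108) or distal replicate 3 (0.0958), or with no filter on low values (0.0706). With a pseudocount of 5, its log2 fold change was 0.57 (adjusted p = 0.0253). Eng is also in the list of endothelial markers, of which 5 of 9 tested, Eng among them, were higher in proximal cells. At an unadjusted p under 0.05 by limma all 9 were higher, against 12.1% of all tested genes. In all 9 every proximal value lay above every distal value, against 15.8% of all tested genes. The summed FPKM of that list, Eng included, was 28.5 to 38.9 in proximal and 6.37 to 19.9 in distal libraries. None of the 10 listed endothelial markers except Tek was at 0 in any library, and the part of endothelial RNA in the Eng result was not tested. Acvr1, Rgmb and Acvr2a, the most abundant of the others, had log2 fold changes of 0.26, -0.033 and -0.14 (limma, adjusted p = 0.264, 0.905 and 0.472).

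The SMADs that carry the signal did not pass in either direction (0 of 3 tested, limma), and 1 of them, Smad4, had an unadjusted p under 0.05. Smad1 had 53.3, 57.1 and 55.5 FPKM in the proximal libraries and 51.0, 63.9 and 64.2 FPKM in the distal libraries, with overlap and a log2 fold change of -0.10 (adjusted p = 0.644). Smad4, the common partner, had 33.2, 40.7 and 37.2 FPKM in the proximal libraries and 29.6, 30.9 and 30.5 FPKM in the distal libraries. Its groups did not overlap, with proximal values above, and its log2 fold change of 0.28 ± 0.11 (SE, adjusted p = 0.161 by limma) did not pass. Smad5 had a log2 fold change of 0.078 (adjusted p = 0.762).

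Among the other intracellular inhibitors, 0 of 7 passed by limma, and 4 had an unadjusted p under 0.05. Of these, 1 (Smurf1) was higher and 3 (Tob1, Ski and Skil) were lower in proximal cells. Smurf1 and Skil are named because of these values. Smurf1 had a log2 fold change of 0.57 ± 0.14 (SE, adjusted p = 0.0512 by limma), with every proximal value above every distal value. Skil had -0.39 ± 0.11 (SE, adjusted p = 0.0788 by limma). Tob1, an antiproliferative protein that binds BMP SMADs, had 61.7, 29.7 and 23.3 FPKM in the proximal libraries and 68.4, 81.5 and 67.0 FPKM in the distal libraries. The groups did not overlap, proximal replicate 1 came close to the distal range, and the log2 fold change of -1.02 ± 0.31 (SE, adjusted p = 0.0932 by limma) did not pass. Ski, a SMAD corepressor, and Fkbp1a, which holds type I receptors inactive, had log2 fold changes of -0.30 and 0.14 (adjusted p = 0.204 and 0.589).

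The other 4 tested BMP target genes did not pass. The most abundant of them, Msx2, Hey1 and Msx1, lay between 0.803 and 4.28 FPKM over all libraries, with log2 fold changes of 0.12, 0.23 and 0.15 (limma, adjusted p = 0.762, 0.371 and 0.729). Of the 11 tested target genes, again Id3 and Bambi passed. By limma 0 passed as higher in proximal cells, also at an unadjusted p under 0.05. The 11 had a median log2 fold change of -0.28. Most of the 11 (Id1, Id2, Id3, Id4, Smad6, Smad7 and Bambi) are among the 10 genes, so these values largely repeat theirs. Of the other 4, 0 had an unadjusted p under 0.05 in either direction.

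**Figure D4:**
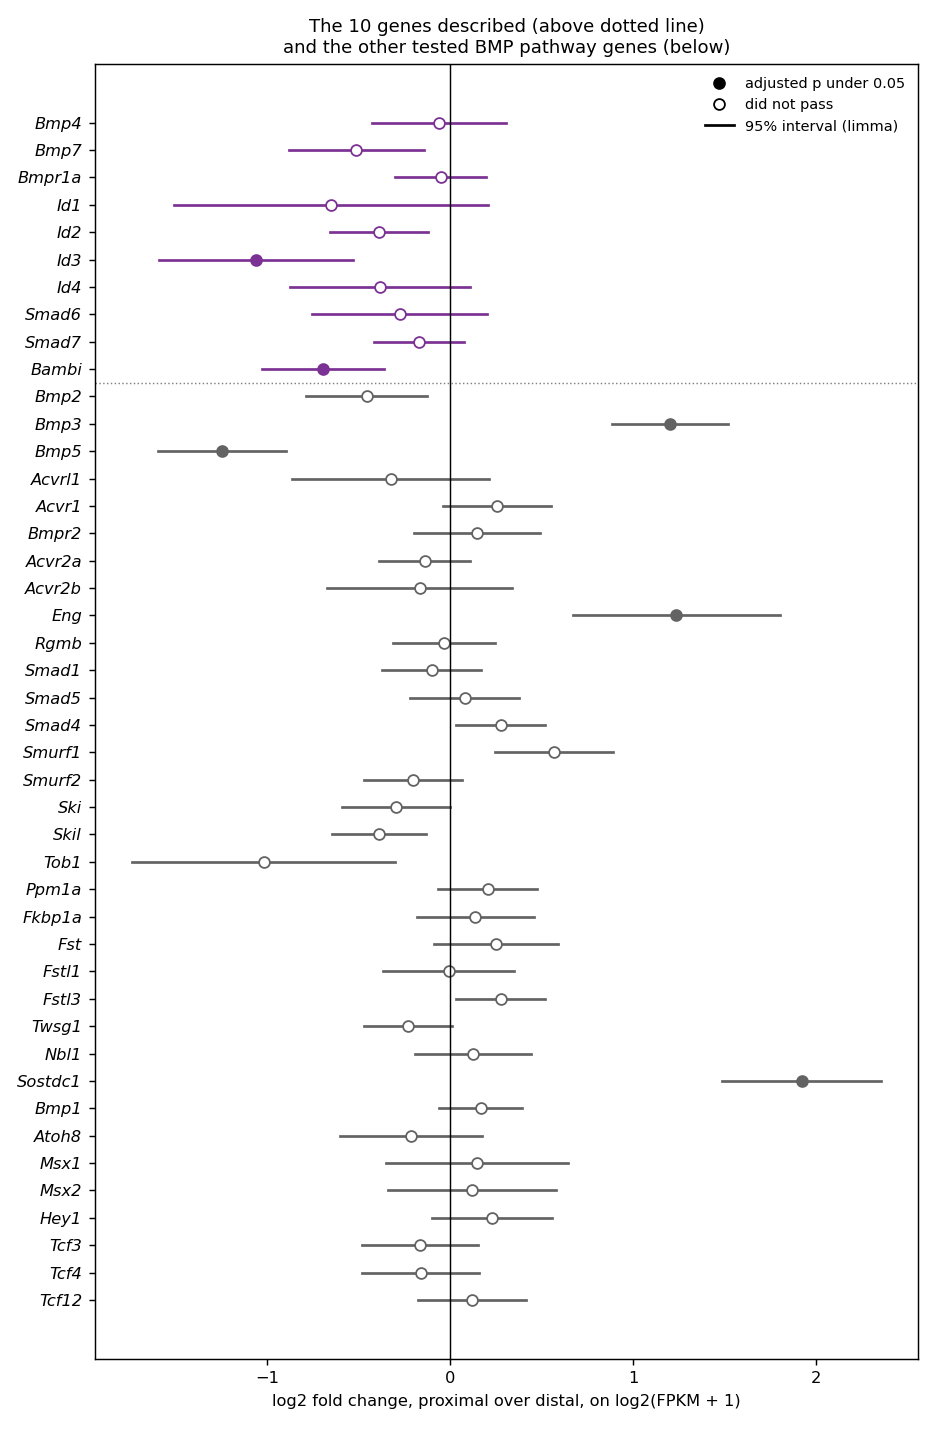
Log2 fold change, proximal over distal, on log2(FPKM + 1) for the 10 genes (purple) and the 34 other tested pathway genes (grey), with 95% limma intervals for each gene without adjustment and filled points for an adjusted p under 0.05. All 10 purple points lie left of 0, and 2 of them, Id3 and Bambi, are filled.

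Other gene groups differed between the same libraries. Of 19 tested dissociation and immediate early genes, which tissue handling is known to induce, 3 (Junb, Egr2 and Ier2) were lower in proximal cells and 0 were higher by limma, against 14 and 0 at an unadjusted p under 0.05. Their summed FPKM was 8006, 8710 and 9632 in the proximal libraries and 10712, 18082 and 18750 in the distal libraries. In this sum distal replicate 1 lay nearer to the proximal range than the other distal libraries. The listed genes differed in this, as Fosl1, Egr3, Ier3, Socs3 and Myc were highest in distal replicate 1 among the distal libraries. The part of this response in the lower Id3 and Bambi values was not tested.

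Of 12 tested proximal luminal progenitor markers, 9 were higher and 1 (Lypd3) was lower in proximal cells, with summed FPKM of 1890 to 2184 in proximal and 1021 to 1089 in distal libraries. Of 7 tested fibroblast markers, 4 were higher, with summed FPKM of 683 to 755 in proximal and 770 to 813 in distal libraries, a sum dominated by Dcn. Of 4 tested nerve and glia markers, 2 were higher, with sums of 44.2 to 61.8 FPKM in proximal and 36.9 to 44.2 FPKM in distal libraries. Of 8 tested smooth muscle markers, 1 was higher, and the sums overlapped, as did those of the leukocyte markers, of which 0 of 3 tested passed by limma or had an unadjusted p under 0.05. The part of these cell types in the differences of Bmp3, Bmp5 and Sostdc1 was not tested.

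**Figure D5:**
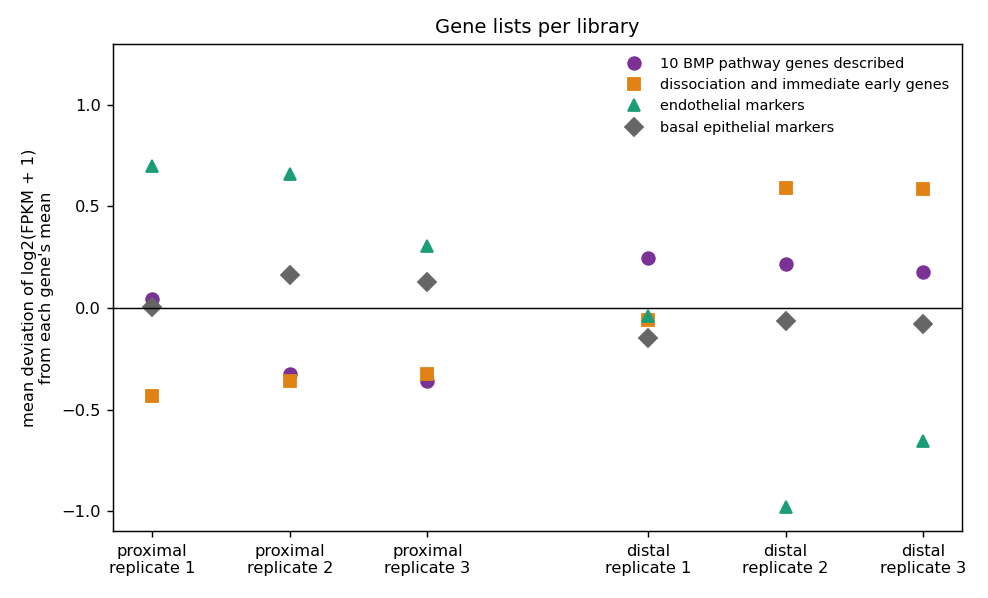
Mean deviation of log2(FPKM + 1) from each gene's mean over 6 libraries, for the 10 BMP pathway genes (circles), immediate early genes (squares), endothelial markers (triangles) and basal epithelial markers (diamonds), in proximal (left) and distal (right) libraries. The circles lie at 0.044, -0.32 and -0.36 in the proximal and at 0.24, 0.22 and 0.18 in the distal libraries.

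Of the basal epithelial markers, 5 of 13 tested were higher in proximal cells (Krt5, Krt15, Col17a1, Lama3 and Lamb3) and 0 were lower by limma, against 7 and 2 at an unadjusted p under 0.05. Trp63, the transcription factor of the basal lineage, had 27.8, 39.1 and 35.7 FPKM in the proximal libraries and 34.6, 74.7 and 66.2 FPKM in the distal libraries, with overlap (limma, adjusted p = 0.170). The median log2 fold change was 0.31 over the basal markers and -0.39 over the 10 genes.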

How the data were processed

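The submitters' processing notes name bcl2fastq 1.8.3, TopHat, Cufflinks and the build mm10. The deposited files list, per the file headers, FPKM, its interval, coverage (an unscaled signal) and a status for 63241 transcripts without gene names. Transcripts were matched to GENCODE M21 (GRCm38, the mm10 assembly) by span and spliced length (49609), by exons (3714) or by exact exon length (313). FPKM was summed for 25385 genes, holding 94.3% of the FPKM. Depth was derived from the width of the intervals. limma 3.58.1 under R 4.3.3 compared the groups on log2(FPKM + 1) for genes averaging 1 FPKM or more (variance trend, two-sided, no covariates, Benjamini-Hochberg adjusted p under 0.05 over all tested genes), and the procedure was tested on simulated data. Strand use: not given in the sources. Other pathway genes named are those that passed and up to 3 further of each list by mean level. Outside this rule, Smurf1, Skil, Fstl3 and the genes of the closing observations were picked with their values in view. The members and lists were chosen with earlier results of these data known. Alternatives covered the pseudocount, filters, scaling, variance trend, replicate block, transcript matching and left-out libraries.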

Additional observations from a re-analysis of the deposited data

How the results depend on the processing

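Over all libraries, 466 genes were higher and 251 lower in proximal cells. The 2 lower members remained 2 under other pseudocounts, a filter at 5 FPKM, median ratio or quantile scaling, no variance trend and narrower transcript matching, and under both scalings all 10 estimates stayed below 0. With no filter, 0 members passed (Id3 adjusted p = 0.0849, Bambi 0.0593) and 138 genes were lower. A filter at 5 FPKM left 277 genes higher, and quantile scaling gave 380 lower. Leaving out each library in turn gave 196 to 552 genes higher, 45 to 600 lower and 0 to 5 members lower. Without both libraries numbered 1, 890 genes were higher, 1335 lower, and 6 members lower (Bmp7, Id1, Id2, Id3, Id4 and Bambi). The causes were not tested. With 1 library left out, the log2 fold change of Bmp4 ranged from -0.17 to 0.012 and turned positive without proximal replicate 2 (0.0099) or distal replicate 3, and that of Bmpr1a ranged from -0.094 to 0.027 and turned positive without proximal replicate 3. With the replicate block, 885 genes were higher and 733 lower, and 4 members were lower, Id1 (adjusted p = 0.00430) and Id2 (0.0403) besides Id3 and Bambi. Deviations of same-numbered libraries correlated at 0.38, 0.042 and 0.29, the first and last being the highest of all proximal and distal pairs. The libraries numbered 2 correlated best with number 3. With 3 libraries per group, these values cannot decide whether the numbers pair the samples. The main fit treated the libraries as unpaired. Of the 4 other called pathway genes, Bmp3, Bmp5 and Sostdc1 passed in all 17 alternatives, and Eng in 13 (adjusted p = 0.0706 with no filter). Among the 10 genes, Bmp4 rests on the fewest fragments.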

Other observations

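Several BMP pathway genes lay below the level of testing. Bmp6, a ligand, had 0.455, 0.831 and 0.920 FPKM in the proximal libraries and 0.275, 0.184 and 0.214 FPKM in the distal libraries. Bmpr1b, another type I receptor, had 0.828, 0.916 and 0.519 FPKM in the proximal libraries and 0.139, 0.253 and 0.285 FPKM in the distal libraries. For both genes every proximal value lay above every distal value, and neither was among the 10312 genes tested in the report. Gdf6, at 0.0384 FPKM or less, had the same order. Smad9 had the opposite order, at 0.0223, 0.00823 and 0.00675 FPKM in the proximal and 0.0587, 0.150 and 0.0380 FPKM in the distal libraries. Of all tested genes, 28.8% were separated in either direction. The share among genes below the level of testing was not counted, and these genes were picked with their values in view. The antagonists Nog and Chrd did not exceed 0.494 and 0.310 FPKM in any library, and Bmp8b, Bmp10 and Cer1 were listed at 0 in all 6.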
